A study of Mus musculus with 15 samples.

Results

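The genes described here carry adrenergic and muscarinic signals in the heart, from the receptors at the cell surface to the enzymes that make the second messenger cAMP and the kinase that switches the receptors off. The group was set as 9 genes (Adrb1, Adra1a, Adra1b, Chrm2, Gnas, Gnai2, Adcy5, Adcy6 and Grk5), and every probe set annotated with 1 of these symbols alone was taken. Of 45096 probe sets on the array, 15 belonged to 6 of the genes: 5 to Gnas, 4 to Adcy5, 2 each to Gnai2 and Grk5, and 1 each to Adra1b and Adcy6. Adrb1, Adra1a and Chrm2 were not analysed here, because the annotation used lists no probe set under those symbols, so that the group held 1 receptor gene only. RNA came from the apex of the heart of untreated male mice aged 9 to 10 weeks, with 5 arrays for each of 3 kinds of mice. The parental groups were inbred strains, C57Bl/6 (C57BL/6J) and C3H (C3H/HeJ), and B6C3F1 (B6C3F1/J) was their first-generation cross. All mice had a radiotelemetry transmitter implanted in the abdomen at 7 weeks of age under tribromoethanol anaesthesia, and no group without this surgery was measured. Each array is labelled as 1 mouse.

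Noradrenaline and adrenaline bind beta-adrenergic receptors, which couple through the stimulatory G protein alpha subunit (Gnas) to adenylyl cyclase. The main cyclases of the heart muscle cell are Adcy5 and Adcy6, and the cAMP they make activates protein kinase A, which raises the rate and the force of the beat. Acetylcholine acts on muscarinic receptors that couple to inhibitory subunits such as Gnai2, alpha-adrenergic receptors such as Adra1b act through phospholipase C instead, and the receptor kinase Grk5 phosphorylates active receptors and thereby dampens their signal.

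Promoter windows in RefSeq (GRCm38.p6, 250 bases before to 50 after a transcript start) were listed for Adra1b, Gnas, Adcy5 and Grk5 among the measured genes, and those of Adcy5 and Grk5, the genes that passed between the inbred strains by their brightest probe set, are shown for reference. The Adcy5 window is chr16:35154614-35154913 (plus strand, 79% G or C) and the Grk5 window is chr19:60889499-60889798 (plus strand, 54.3% G or C). Capitals mark the GC box GGGCGG on either strand, the letters bound by Sp family factors.
Adcy5: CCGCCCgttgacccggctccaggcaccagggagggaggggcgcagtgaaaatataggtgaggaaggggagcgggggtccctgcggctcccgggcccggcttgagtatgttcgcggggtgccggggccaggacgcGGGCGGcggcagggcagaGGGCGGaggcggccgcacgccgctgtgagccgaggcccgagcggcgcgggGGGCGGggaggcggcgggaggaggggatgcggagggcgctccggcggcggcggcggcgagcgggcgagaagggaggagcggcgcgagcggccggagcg
Grk5: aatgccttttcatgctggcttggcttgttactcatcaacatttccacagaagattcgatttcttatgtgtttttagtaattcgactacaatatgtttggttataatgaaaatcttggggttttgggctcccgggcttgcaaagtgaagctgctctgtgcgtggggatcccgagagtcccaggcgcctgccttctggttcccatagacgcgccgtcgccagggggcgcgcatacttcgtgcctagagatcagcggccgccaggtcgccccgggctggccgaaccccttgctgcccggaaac
The Adcy5 window held 4 GC boxes and the Grk5 window none, and 35.7% of 32851 windows of the same length held at least 1. Neither window held the cAMP response element TGACGTCA, present in 1.79% of all windows, its shorter form TGACG, which lies within the full element and was found in 20.8%, or the E-box CACGTG, found in 7.15%, on either strand. These windows are of the reference genome alone, so they cannot show whether the strains differ there.

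All values below are log2(signal + 16), where the signal is the brightness of a probe set and 16 is added to damp the noise of dim sets. A probe set was called dim, and left out of the main tests, when its mean lay below 5.74, the 40th percentile of all probe sets. All 15 arrays had been scaled to 1 brightness, with a 2% trimmed mean of about 500.26. All 8 ventricular muscle markers lay above the dim filter and none passed between any 2 groups. Above the filter too were 4 of 6 atrial, 2 of 4 listed conduction system and 4 of 7 listed autonomic neuron markers. Those of autonomic neurons were the sympathetic markers Dbh and Slc6a2 with Phox2a and Uchl1. The sympathetic marker Th, the cholinergic marker Slc18a3 and Prph were dim. The poly-A control RNAs added at labelling were brightest on the C3H arrays (11.05 ± 0.80, SD, n = 5) and lower on the C57Bl/6 (10.26 ± 0.57) and B6C3F1 arrays (10.33 ± 0.13). C3H replicate 4 stood apart at 12.48, against 10.63 to 10.81 on the other 4 C3H arrays, as did C57Bl/6 replicate 5 at 9.25, against 10.45 to 10.55. The log2 ratio of the 3 prime to the 5 prime Gapdh control sets, a measure of RNA integrity, was 0.85 ± 0.24 in C57Bl/6, 0.90 ± 0.21 in B6C3F1 and 0.60 ± 0.26 in C3H. Because the labels number the mice group by group, handling order and genotype cannot be told apart.

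Grk5 was the gene of this group that differed most: it was higher in C3H than in C57Bl/6 hearts and lower in the cross than in C3H, in both of its probe sets. Adcy5 was slightly higher in C3H than in C57Bl/6, and Gnai2 was slightly higher in the cross than in C57Bl/6, each in 1 of its probe sets. Adra1b, Gnas and Adcy6 passed in no comparison. With each gene represented by its brightest probe set, all 6 genes lay above the dim filter. Between C3H and C57Bl/6, 2 were higher in C3H, 0 were lower and 4 did not pass, where 15.7% of all 13111 genes tested passed, 7.25% higher and 8.4% lower. Between B6C3F1 and C57Bl/6, 1 was higher and 5 did not pass (3.83% of all genes passed, 2.06% higher and 1.77% lower). Between B6C3F1 and C3H, 1 was lower and 5 did not pass (6.2% of all genes passed, 3.58% higher and 2.62% lower). Against the midparent, which is the average of the C57Bl/6 and C3H means on the log2 scale, none of the 6 passed in the limma fit, where 0.633% of all genes did (0.481% higher, 0.153% lower). Of the 6, 2 (Adcy6 and Gnai2) had an unadjusted p under 0.05, and the share of all genes at that level was not counted. The median difference of the 6 genes was 0.09 between C3H and C57Bl/6, against -0.02 for all genes, -0.03 between B6C3F1 and C57Bl/6 (0.01 for all genes) and -0.15 between B6C3F1 and C3H (0.03 for all genes). In bulk RNA of the apex, fewer cells of a type and less RNA per cell cannot be told apart.

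**Figure D1:**
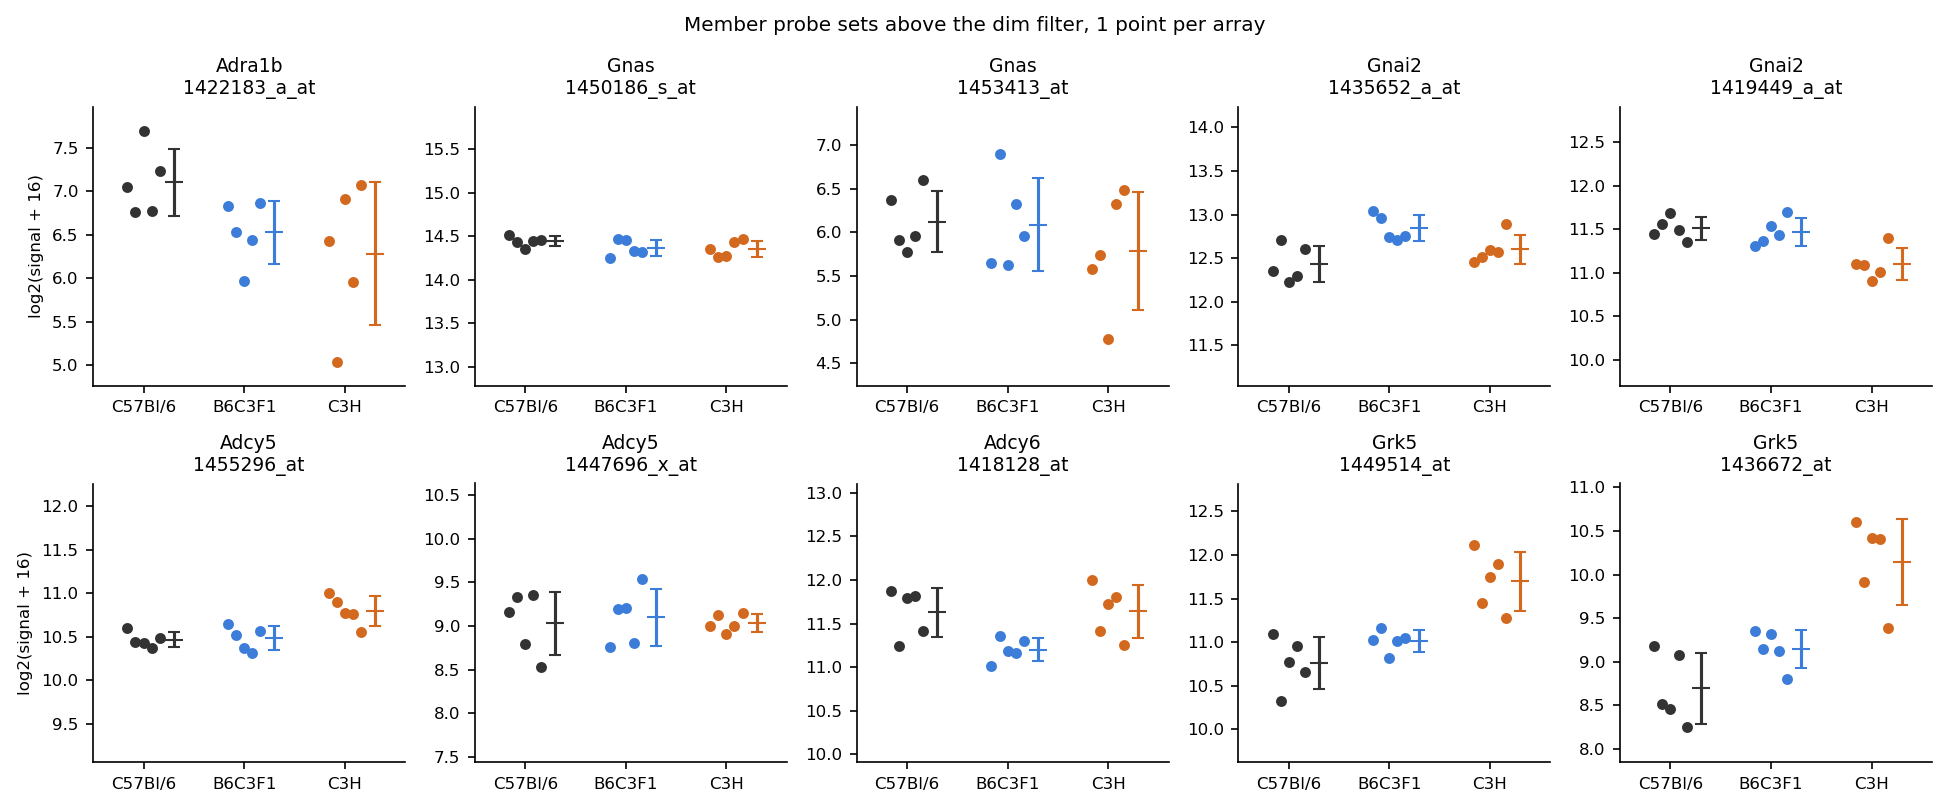
Signals of the 10 member probe sets above the dim filter, as log2(signal + 16), with 1 point for each array of C57Bl/6, B6C3F1 and C3H hearts and the mean and SD of 5 arrays as a bar beside them. Every panel spans the same log2 range, and in both Grk5 panels the C3H arrays lie above all others.

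Among the receptors, Adra1b, the alpha-adrenergic receptor gene measured, gave a low signal, above the dim filter. In the order of replicates 1 to 5, its probe set read 7.05, 6.76, 7.69, 6.77 and 7.23 on the C57Bl/6 arrays. The B6C3F1 arrays read 6.83, 6.53, 5.97, 6.44 and 6.87. The C3H arrays read 6.43, 5.04, 6.91, 5.96 and 7.07, the widest scatter of the 3 groups. The means were 7.10 ± 0.38 (SD, n = 5) in C57Bl/6, 6.53 ± 0.36 in B6C3F1 and 6.28 ± 0.82 in C3H, and the arrays of the inbred strains overlapped. The difference of C3H from C57Bl/6 was -0.82 ± 0.33 (SE), with a 95% interval from -1.52 to -0.12 and an adjusted p of 0.109. That difference passed without C3H replicate 5 (-1.02, adjusted p = 0.047) and with the Gapdh ratio as a covariate (-1.06, adjusted p = 0.0474). Neighbours in the order of levels, C57Bl/6 over B6C3F1 and B6C3F1 over C3H, did not pass (adjusted p = 0.349 and 0.748).

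Gnas, the stimulatory alpha subunit, was bright and nearly level. Its main probe set read 14.51, 14.43, 14.36, 14.44 and 14.46 on the C57Bl/6 arrays, 14.25, 14.47, 14.46, 14.33 and 14.32 on the B6C3F1 arrays, and 14.36, 14.26, 14.27, 14.43 and 14.47 on the C3H arrays. The 3 groups overlapped, and all 15 arrays lay within a narrow band. C3H differed from C57Bl/6 by -0.08 ± 0.07 (95% interval -0.24 to 0.07, adjusted p = 0.499). The other probe set above the filter, 1453413_at, gave a signal close to the filter in every group (6.12 ± 0.35 in C57Bl/6, 6.09 ± 0.54 in B6C3F1 and 5.78 ± 0.68 in C3H) and did not pass either. The remaining 3 Gnas probe sets (1443375_at, 1427789_s_at and 1421740_at) lay below the dim filter. In a fit without the filter none of them passed, the one with the widest gap being 1443375_at, which differed by 0.90 between B6C3F1 and C57Bl/6 (adjusted p = 0.273). Gnas is an imprinted locus with several promoters and transcripts, and which of these each probe set reads was not examined.

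Gnai2, an inhibitory alpha subunit, was highest in the cross by its brighter probe set, 1435652_a_at. The B6C3F1 arrays read 13.04, 12.96, 12.74, 12.71 and 12.76. On the C57Bl/6 arrays the values were 12.35, 12.70, 12.23, 12.29 and 12.60, and on the C3H arrays 12.46, 12.51, 12.59, 12.57 and 12.89. Every B6C3F1 array lay above every C57Bl/6 array, though the nearest were close (12.71 and 12.70), while the C3H arrays overlapped both. Such a gap between groups was seen in 6.16% of all genes. B6C3F1 exceeded C57Bl/6 by 0.41 ± 0.11 (1.32-fold, adjusted p = 0.0394), and it differed from C3H by 0.24 ± 0.11 (adjusted p = 0.222). The call against C57Bl/6 was lost after centring each array on its median (0.44, adjusted p = 0.0900) and without an intensity trend in the fit (adjusted p = 0.0863). It was also lost without any 1 of C57Bl/6 replicates 1, 3 and 4 (adjusted p = 0.0969, 0.115 and 0.104) or B6C3F1 replicates 1, 2, 3 and 4 (0.111, 0.0994, 0.0589 and 0.0518).

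The second Gnai2 probe set, 1419449_a_at, gave another picture. It read 11.45, 11.56, 11.69, 11.49 and 11.35 in C57Bl/6, 11.31, 11.36, 11.54, 11.43 and 11.70 in B6C3F1, and 11.10, 11.09, 10.91, 11.01 and 11.40 in C3H. Only C3H replicate 5 reached the range of the other 2 groups. C3H was lower than C57Bl/6 by this set, with a difference of -0.41 ± 0.10 (1.33-fold, adjusted p = 0.0111 over all probe sets), where the brighter set differed by 0.17 ± 0.11 (adjusted p = 0.337 over genes). The call was lost after centring each array on its median (-0.30, adjusted p = 0.108). B6C3F1 exceeded C3H by 0.37 (adjusted p = 0.0449), a call lost in 17 of 28 alternatives, and it differed from C57Bl/6 by -0.04 (adjusted p = 0.872). The array-to-array deviations of the 2 sets from their group means had a Pearson correlation of -0.05 over 15 arrays. The order of the groups in Gnai2 thus depends on the probe set.

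Of the cyclases, Adcy5 was higher in C3H hearts in its brightest probe set, 1455296_at. The C3H arrays read 11.001, 10.90, 10.77, 10.76 and 10.55. The C57Bl/6 arrays read 10.60, 10.44, 10.43, 10.37 and 10.48, and the B6C3F1 arrays 10.65, 10.51, 10.37, 10.31 and 10.57. All C3H arrays but replicate 5 lay above both other groups, and B6C3F1 lay level with C57Bl/6 (10.48 ± 0.14 and 10.47 ± 0.09). C3H exceeded C57Bl/6 by 0.33 ± 0.10 (1.26-fold, adjusted p = 0.0258). The call was lost after adjustment for the poly-A controls (0.35, adjusted p = 0.0705) or for the Gapdh ratio (0.28, adjusted p = 0.0839). Leaving out C57Bl/6 replicate 3 or 4 or C3H replicate 1 or 2 also ended it (adjusted p = 0.0589, 0.0649, 0.0600 and 0.0639). B6C3F1 differed from C3H by -0.31 ± 0.10 (adjusted p = 0.0663) and passed without C3H replicate 5 (-0.38, adjusted p = 0.0202). The other Adcy5 set above the filter, 1447696_x_at, did not show the difference: C3H differed from C57Bl/6 by 0.01 (adjusted p = 0.99), and its deviations correlated with those of the first set at -0.05. Sets 1439829_at and 1443080_at lay below the dim filter, and neither passed in a fit without it.

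Adcy6, the other main cardiac cyclase, was lowest in the cross. The B6C3F1 arrays read 11.01, 11.35, 11.18, 11.16 and 11.30. Values were 11.87, 11.25, 11.79, 11.82 and 11.41 in C57Bl/6 and 12.00, 11.41, 11.72, 11.81 and 11.26 in C3H. Replicate 2 of C57Bl/6 and replicate 5 of C3H lay within the B6C3F1 range, and all the other parental arrays lay above it. The parental means nearly coincided, at 11.63 ± 0.28 and 11.64 ± 0.30, with a difference of 0.01 and a 95% interval from -0.28 to 0.30. B6C3F1, at 11.20 ± 0.13, differed by -0.43 ± 0.14 from C57Bl/6 (adjusted p = 0.0932), by -0.44 ± 0.14 from C3H (adjusted p = 0.0727) and by -0.43 ± 0.12 from the midparent (adjusted p = 0.125). None of these passed. The difference from C57Bl/6 passed without C57Bl/6 replicate 2 (adjusted p = 0.0297). That from C3H passed without the same array (0.049), without C3H replicate 5 (0.0192) and after centring each array (0.0441), and that from the midparent passed without C3H replicate 5 (0.0378).

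Grk5, the receptor kinase, was higher in C3H than in both other groups. By its brighter probe set, 1449514_at, the C3H arrays read 12.11, 11.45, 11.75, 11.90 and 11.28. The B6C3F1 arrays read 11.03, 11.16, 10.82, 11.02 and 11.05 and the C57Bl/6 arrays 11.09, 10.33, 10.77, 10.96 and 10.65. Every C3H array lay above every array of the other 2 groups, which overlapped each other. Groups did not overlap in 11.2% of all genes between C3H and C57Bl/6, and in 6.4% between B6C3F1 and C3H. The means ran from 10.76 ± 0.29 (SD, n = 5) in C57Bl/6 through 11.02 ± 0.12 in B6C3F1 to 11.70 ± 0.34 in C3H. C3H exceeded C57Bl/6 by 0.94 ± 0.15 (1.91-fold, adjusted p = 0.000142), and this difference passed in all 28 alternatives (0.83 to 1.04, adjusted p at most 0.00358). B6C3F1 was lower than C3H, with a difference of -0.68 ± 0.15 (1.61-fold, adjusted p = 0.00772). Its difference of 0.25 ± 0.15 from C57Bl/6 did not pass (adjusted p = 0.351), nor did that of -0.21 from the midparent (adjusted p = 0.447).

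The dimmer Grk5 probe set, 1436672_at, ordered the groups the same way. It read 9.19, 8.52, 8.46, 9.07 and 8.25 in C57Bl/6, 9.35, 9.15, 9.32, 9.12 and 8.80 in B6C3F1, and 10.60, 9.92, 10.42, 10.41 and 9.39 in C3H. The lowest C3H array, replicate 5, was just above the highest B6C3F1 array. C3H exceeded C57Bl/6 by 1.45 ± 0.21 (2.73-fold, adjusted p = 5.33e-05 over all probe sets), and B6C3F1 differed from C3H by -1.0 ± 0.21 (2.00-fold lower, adjusted p = 0.00627) and from C57Bl/6 by 0.45 (adjusted p = 0.249). Deviations of both sets from their group means correlated at 0.75 over the 15 arrays. After adjustment for the poly-A controls, themselves brightest in C3H, the lower level in B6C3F1 than in C3H did not pass in the brighter set (-0.58, adjusted p = 0.0739) or the dimmer one (-0.79, adjusted p = 0.0791), whereas C3H against C57Bl/6 still passed (0.83 for the brighter set, adjusted p = 0.00358). Without C3H replicate 4, the array brightest in these controls, the brighter set differed by -0.63 between B6C3F1 and C3H (adjusted p = 0.0262).

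Over all 10 member probe sets above the filter, 3 were higher and 1 was lower in C3H than in C57Bl/6, where 13.7% of 23048 probe sets passed (6.17% higher, 7.49% lower). Of the same 10 sets, 1 was higher in B6C3F1 than in C57Bl/6 (3.18% of all sets passed, 1.71% higher and 1.48% lower). Against C3H, 1 was higher and 2 were lower in B6C3F1 (5.15% of all sets passed, 3.1% higher and 2.05% lower). Against the midparent 0 of the 10 passed in the limma fit (0.573% of all sets did, 0.434% higher and 0.139% lower), and 2 had an unadjusted p under 0.05. The share of all sets at that unadjusted level was not counted. The arrays did not overlap in 2 of the 10 sets between C3H and C57Bl/6 (10% of all sets), 1 between B6C3F1 and C57Bl/6 (5.55%) and 2 between B6C3F1 and C3H (5.75%). The plot of differences sets these side by side. The comparisons share groups, so their columns are not independent.

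**Figure D2:**
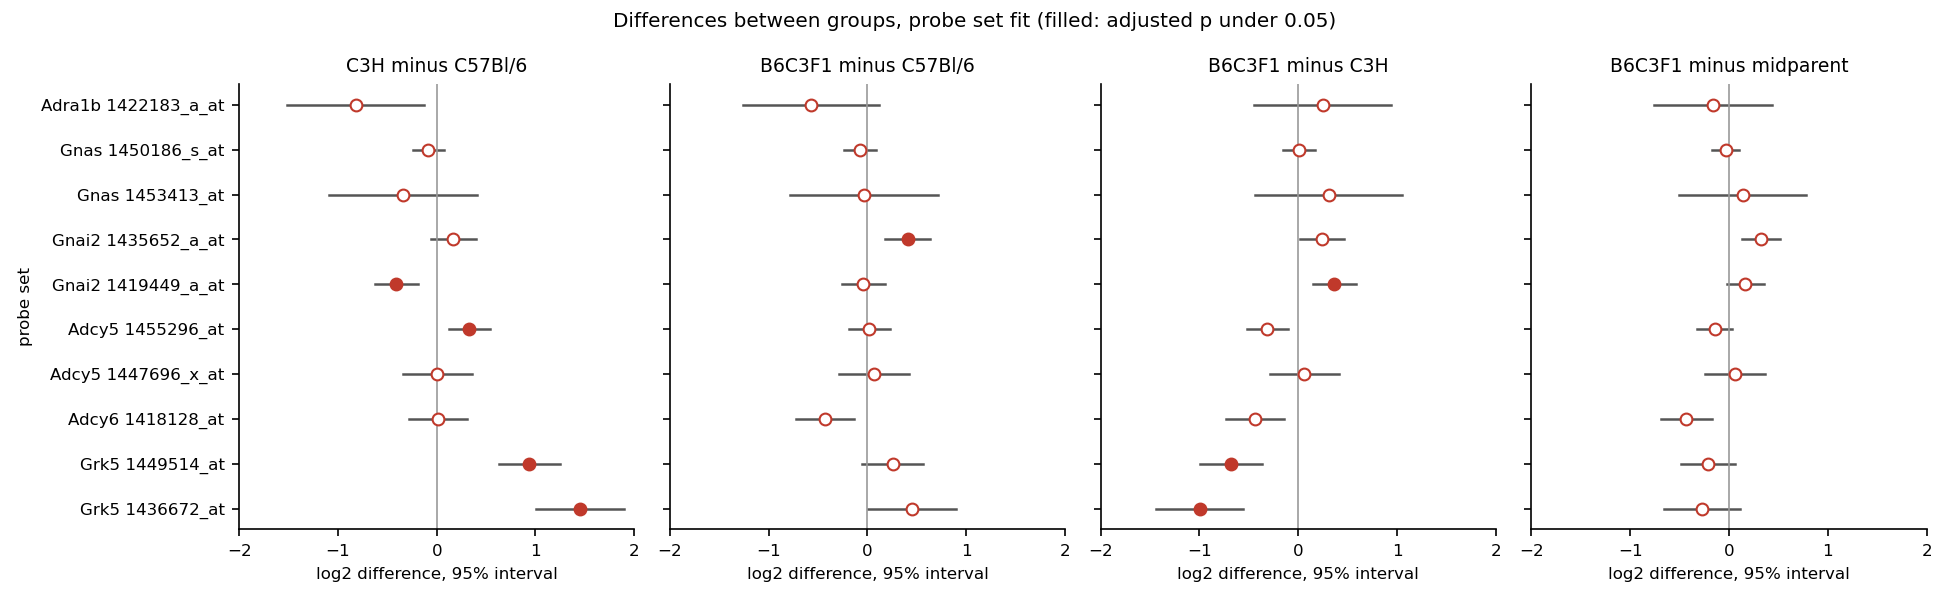
Log2 differences of the 10 member probe sets in the 4 comparisons, with 95% intervals from the probe set fit and filled points where the adjusted p was under 0.05. Both Grk5 sets are filled in C3H minus C57Bl/6 (0.94 and 1.45) and in B6C3F1 minus C3H (-0.68 and -1.0), and the 2 Gnai2 sets lie on opposite sides of 0 in the first panel.

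Markers of other cells moved between the strains too. Of 6 fibroblast markers, all above the filter, 3 were higher in C3H than in C57Bl/6 and 2 were higher in B6C3F1 than in C57Bl/6. The mean of that list ran from 10.43 to 11.09 on the C57Bl/6 arrays, 11.15 to 11.37 on the B6C3F1 arrays and 10.79 to 11.41 on the C3H arrays. Of 6 endothelial markers, 3 were lower in C3H than in C57Bl/6 and 2 were higher in B6C3F1 than in C3H, with list means of 10.06 to 10.44 in C57Bl/6, 9.74 to 10.52 in B6C3F1 and 9.44 to 10.08 in C3H. Of the other lists, counting markers above the filter, 1 of 4 atrial and 1 of 3 Schwann cell markers were higher in C3H than in C57Bl/6. Of 5 macrophage markers, 1 was higher and 1 lower, and 1 of 2 skeletal muscle markers was lower. Of all genes tested, 15.7% passed between these strains. Between B6C3F1 and C3H, 1 of 4 atrial and 1 of 2 conduction system markers were lower in B6C3F1 and 1 of 5 macrophage markers was higher. Of all genes, 6.2% passed in that comparison and 3.83% between B6C3F1 and C57Bl/6. The part of all these markers in the differences of Grk5, Adcy5 and Gnai2 was not tested. The list of 8 ventricular muscle markers ranged from 15.56 to 15.99 in C57Bl/6, 15.40 to 15.94 in B6C3F1 and 15.39 to 15.78 in C3H.

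Across the 15 arrays, the deviations of Adcy6 and Grk5 from their group means were correlated. After the group mean was removed from each gene, their deviations over 15 arrays correlated at a Pearson r of 0.92 (permutation p = 0.00011, adjusted p = 0.00165) and a Spearman rho of 0.94 (permutation p = 2e-05, adjusted p = 3e-04), with arrays permuted within groups, two-sided, and adjustment over the 15 pairs of the 6 genes. The arrays were spread along the line rather than split in clusters: C57Bl/6 replicate 1 lay 0.24 above its group mean in Adcy6 and 0.33 in Grk5, and C3H replicate 1 lay 0.36 and 0.41 above. C57Bl/6 replicate 2 lay at -0.38 and -0.43, and C3H replicate 5 at -0.38 and -0.42. The widest deviations were thus of parental arrays, and the B6C3F1 arrays followed less closely: the lowest of them in Adcy6, replicate 1, lay at -0.19 there and at 0.01 in Grk5, and the lowest in Grk5, replicate 3, at -0.02 in Adcy6 and -0.19 in Grk5. Without the 2 arrays farthest from the median of Adcy6 the r was 0.86. Of 13110 other genes, 2, Adcy6 included, correlated with Grk5 at least this strongly, and 5 did so with Adcy6, Grk5 included. The dimmer Grk5 set correlated with Adcy6 at 0.69. The 5 arrays of a group are too few for a correlation within each group.

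Gnai2 deviations were negatively correlated with those of Adcy6, with a Pearson r of -0.74 (permutation p = 0.00628, adjusted p = 0.0471). Its Spearman rho of -0.62 did not pass after adjustment (permutation p = 0.0385, adjusted p = 0.289). The r was -0.51 without the 2 farthest arrays, so that it rests in part on them, and 2.25% of other genes were at least as negatively correlated with Adcy6. The dimmer Gnai2 set, 1419449_a_at, was not set against Adcy6. Its deviations correlated with those of the brighter set at -0.05, and the result was examined for 1435652_a_at alone. Of the 13 other pairs none passed (adjusted p of r from 0.261 to 0.946). The same deviations correlated with those of the poly-A controls at 0.39 for Adcy6, 0.30 for Grk5 and -0.30 for Gnai2, and with those of the Gapdh ratio at 0.25, 0.13 and -0.17. The part of these array measures in the correlations between genes was not tested.

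**Figure D3:**
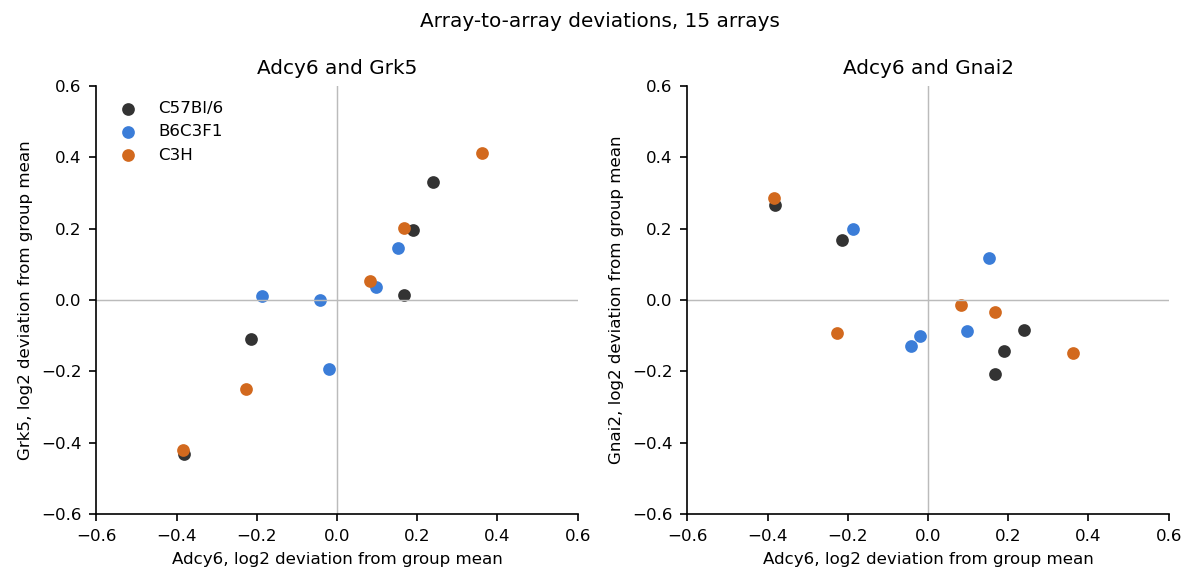
Deviation of each array from its group mean, in log2 units, for Adcy6 on the x axis against Grk5 (left) and Gnai2 (right), with 1 point per array and colours for the 3 groups. Each gene is shown by its brightest probe set. Over the 15 arrays Adcy6 and Grk5 lie along a rising line (r = 0.92), with the B6C3F1 points in a narrow range near the centre, and Adcy6 and Gnai2 along a looser falling one (r = -0.74).

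For each measured gene, by its brightest probe set, the 2 most similar of the 13105 genes outside the group were listed as a description. Similarity was the Pearson correlation of these deviations over 15 arrays. It was not tested, and the top values among so many genes are high by selection. Grk5 was most like Epha7, an ephrin receptor (0.93), and Amy1, an amylase (0.92). Adcy6 was most like Pik3r1, a regulatory subunit of phosphoinositide 3-kinase (0.94), and again Epha7 (0.93). Adcy5 stood closest to Esyt2, an extended synaptotagmin, and Gpc4, a glypican (0.86 each). For Gnai2 they were Vps28, an endosomal sorting protein (0.89), and Hint2, a mitochondrial hydrolase (0.88). Gnas stood closest to Ldhb, a lactate dehydrogenase subunit, and Vdac1, the mitochondrial outer membrane channel (0.89 each). Adra1b, the lowest of the 6 in signal, was most like Whamm, an actin nucleation factor (0.86), and Fiz1, a zinc finger protein (0.85).

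The rest of the pathway was described through 8 lists of 140 further genes, of which 124 had a probe set listed and 111 lay above the dim filter. Between C3H and C57Bl/6, 10 were higher and 9 lower in C3H, or 17.1% of those tested beside 15.7% of all genes, with a median difference of 0.05. In B6C3F1, 2 were higher and 2 lower than in C57Bl/6 (3.6%, beside 3.83% of all genes), and 4 were higher and 8 lower than in C3H (10.8%, beside 6.2%). Against the midparent none of the 111 passed in the limma fit, while 25 had an unadjusted p under 0.05. The share of all genes at that unadjusted level was not counted, so the 25 cannot be set against a background.

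Of 10 other adrenergic and muscarinic receptor genes, 4 had a probe set listed and 1, Chrm1, lay above the filter. Chrm1 differed by 0.16 between C3H and C57Bl/6 (adjusted p = 0.765). Of 19 other G protein subunits, 1 was higher in C3H than in C57Bl/6: Gng10, a gamma subunit, by 0.54 (adjusted p = 0.00924), with all C3H arrays (11.28 to 11.64) above all C57Bl/6 arrays (10.38 to 11.22). Gnb2, a beta subunit, was lower in B6C3F1 than in C57Bl/6 (-0.33, adjusted p = 0.041) and than in C3H (-0.32, adjusted p = 0.0338), and Gna12 was lower in B6C3F1 than in C3H (-0.36, adjusted p = 0.0469). Leaving out any 1 of 9 of the 15 arrays ended the call of Gnb2 against C57Bl/6 (adjusted p = 0.0501 to 0.118), any 1 of 6 that against C3H (0.0523 to 0.0997), and any 1 of 10 that of Gna12 (0.0505 to 0.123).

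Of 7 other adenylyl cyclases, Adcy9 was higher in C3H than in C57Bl/6 (0.61, adjusted p = 0.0126) and lower in B6C3F1 than in C3H (-0.77, adjusted p = 0.0055). The 3 other Adcy9 probe sets differed in the same direction between the inbred strains (0.50, 0.35 and 0.42, of which the set at 0.35 did not pass). Adcy1 was lower in C3H by -1.36 (adjusted p = 0.017), with C57Bl/6 arrays from 6.90 to 8.19 and C3H arrays from 4.93 to 7.19. Adjusted for the poly-A controls, Adcy9 did not pass between the inbred strains (0.50, adjusted p = 0.109), and adjusted for the Gapdh ratio Adcy1 did not (-1.14, adjusted p = 0.0658).

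Of 15 other receptor kinases, arrestins and RGS genes, whose products end receptor or G protein signals, 2 were higher and 2 lower in C3H than in C57Bl/6. Grk3, a receptor kinase like Grk5, was higher by 1.02 (adjusted p = 1.65e-06), with C3H arrays from 9.63 to 10.10, B6C3F1 arrays from 9.20 to 9.38 and C57Bl/6 arrays from 8.61 to 9.00, so that no 2 groups overlapped. B6C3F1 was above C57Bl/6 by 0.44 (adjusted p = 0.0355), a call lost without any 1 of 7 arrays (0.0508 to 0.0917), and below C3H by -0.59 (adjusted p = 0.00275). The size depends on the probe set: the 2 other Grk3 sets differed by 0.49 (adjusted p = 0.0432) and 0.35 (adjusted p = 0.536) between the inbred strains. Without probe sets that may match several transcripts, another Grk3 set stood in, and neither B6C3F1 difference passed. That set differed by 0.06 from C57Bl/6 (adjusted p = 0.939) and by -0.29 from C3H (adjusted p = 0.699). Rgs3 was higher in C3H by 0.56 (adjusted p = 0.0335), a call lost without any 1 of 6 arrays (0.0581 to 0.0988). Rgs6, which speeds the shut-off of inhibitory G proteins and is known for limiting muscarinic slowing of the heart, was lower in C3H by -1.41 (adjusted p = 7.49e-05), with C3H arrays from 6.87 to 7.26 below all C57Bl/6 arrays (8.13 to 8.78). Rgs5 was lower by -0.40 in its brightest set (adjusted p = 0.00134), while its other sets differed by -1.14, 1.09 and -0.21, and its probe sets thus disagree in direction. Rgs2 was lower in B6C3F1 than in C3H (-1.03, adjusted p = 0.0362), a call lost without any 1 of 8 arrays (0.0511 to 0.101), and Rgs6 was higher there (0.93, adjusted p = 0.0107).

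Of 15 phosphodiesterases, which break cAMP or cGMP down, 1 was higher and 2 were lower in C3H than in C57Bl/6. Pde2a was lower by -0.57 (adjusted p = 0.000371), with C3H arrays from 11.65 to 12.19 and C57Bl/6 arrays from 12.37 to 12.64, and was also lower in B6C3F1 than in C57Bl/6 (-0.44, adjusted p = 0.0152, and 0.0536 without B6C3F1 replicate 1). A second Pde2a set differed by -0.77 and the remaining one, not passing, by 0.27. Pde3b was lower by -0.62 (adjusted p = 0.0265) and did not pass without C57Bl/6 replicate 2 (0.0738) or C3H replicate 1 (0.0588) or 3 (0.08). Pde7a was higher by 0.58 in its brightest set (adjusted p = 0.00559) but another of its sets was lower by -1.74 (adjusted p = 0.000753), and here too the sets disagree in direction.

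Of 22 genes of protein kinase A, its anchoring proteins and the cAMP sensors Epac and Popeye, 4 were higher and 2 lower in C3H than in C57Bl/6. Pkig, an inhibitor of protein kinase A, was higher by 0.72 (adjusted p = 4.91e-05) and lower in B6C3F1 than in C3H (-0.56, adjusted p = 0.00214), while its other set differed by 0.10 between the inbred strains (adjusted p = 0.508). Akap9, an anchor of the kinase, was higher by 0.52 (adjusted p = 0.0026), where its 3 other sets did not pass. Rapgef3, which codes for Epac, was lower by -0.51 (adjusted p = 0.0324), a call lost without any 1 of 5 arrays (0.0549 to 0.091), and Akap8 was lower by -0.51 (adjusted p = 0.0195), where its other set differed by 0.08. Without C57Bl/6 replicate 3 or C3H replicate 4 Akap8 did not pass (0.068 and 0.0617).

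Of 23 effectors and targets, 1 was higher and 2 were lower in C3H than in C57Bl/6. Prkce, protein kinase C epsilon, which acts below alpha-adrenergic receptors, was lower by -0.99 (adjusted p = 7.23e-07), with C3H arrays from 9.37 to 9.82 below the B6C3F1 (10.11 to 10.38) and C57Bl/6 arrays (10.40 to 10.68). Its 2 other sets differed in the same direction without passing (-0.34 and -0.32). Kcnj3, a subunit of the potassium channel that acetylcholine opens, was lower by -0.87 (adjusted p = 0.000122), and its C3H arrays (8.86 to 9.58) lay below the B6C3F1 (9.94 to 10.31) and C57Bl/6 arrays (9.97 to 10.34). The 2 other Kcnj3 sets pointed the same way without passing (-0.70 and -0.22). Cacna1c, the pore of the L-type calcium channel, was higher in C3H by 0.47 (adjusted p = 0.0139) and by 0.58 in its other set (adjusted p = 0.00328). B6C3F1 exceeded C3H in Kcnj3 (0.79, adjusted p = 0.00117) and Prkce (0.74, adjusted p = 0.00011). Hcn2, a pacemaker channel, was higher in B6C3F1 than in C57Bl/6 (1.05, adjusted p = 0.0229), a call lost without any 1 of 5 arrays (0.0517 to 0.0701). Of 9 genes of catecholamine and acetylcholine supply, none passed in any of the 4 comparisons by limma. Between C3H and C57Bl/6 they differed by -0.36 to 0.38, and 0 had an unadjusted p under 0.05, against 2 between B6C3F1 and C57Bl/6, 1 between B6C3F1 and C3H and 2 against the midparent. These unadjusted counts too have no share of all genes beside them.

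Several of these pathway calls were lost in other fits. Without an intensity trend, Rgs3 did not pass between the inbred strains (adjusted p = 0.0647), nor Hcn2 and Gnb2 between B6C3F1 and C57Bl/6 (0.0567 and 0.0772). Gnb2, Gna12 and Rgs2 did not pass between B6C3F1 and C3H without it (0.0621, 0.0818 and 0.093). With only the groups compared in the fit, Rgs3 was lost between the inbred strains (0.0547). The same fit lost Gnb2, Gna12 and Rgs2 between B6C3F1 and C3H (0.0646, 0.0683 and 0.0542). After adjustment for the poly-A controls, Rgs3, Pde3b, Pde7a, Akap8, Rapgef3 and Cacna1c did not pass between the inbred strains (adjusted p = 0.0563 to 0.245), nor did Gna12, Gnb2, Adcy9, Rgs2 and Rgs6 between B6C3F1 and C3H (0.0544 to 0.242). Centring each array on its median ended the calls of Pde3b, Akap8 and Rapgef3 between the inbred strains (0.0733 to 0.133) and of Gnb2 and Pde2a between B6C3F1 and C57Bl/6 (0.176 and 0.0518). With the Gapdh ratio as a covariate, Pde3b and Rapgef3 did not pass between the inbred strains (0.0838 and 0.0897), nor did Gna12, Gnb2 and Rgs2 between B6C3F1 and C3H (0.0511 to 0.139). Without probe sets that may match several transcripts, other sets stood for Grk3 and Pkig, and neither passed between the inbred strains (0.521 and 0.481), nor did Pde7a (0.0795). The same sets of Grk3 and Pkig did not pass between B6C3F1 and C3H (0.699 and 0.124), nor did that of Grk3 between B6C3F1 and C57Bl/6 (0.939). Of the pathway genes named here, Rgs5, Rgs6, Pde2a, Akap9, Kcnj3, Prkce and Gng10 passed between the inbred strains in all 28 alternatives.

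**Figure D4:**
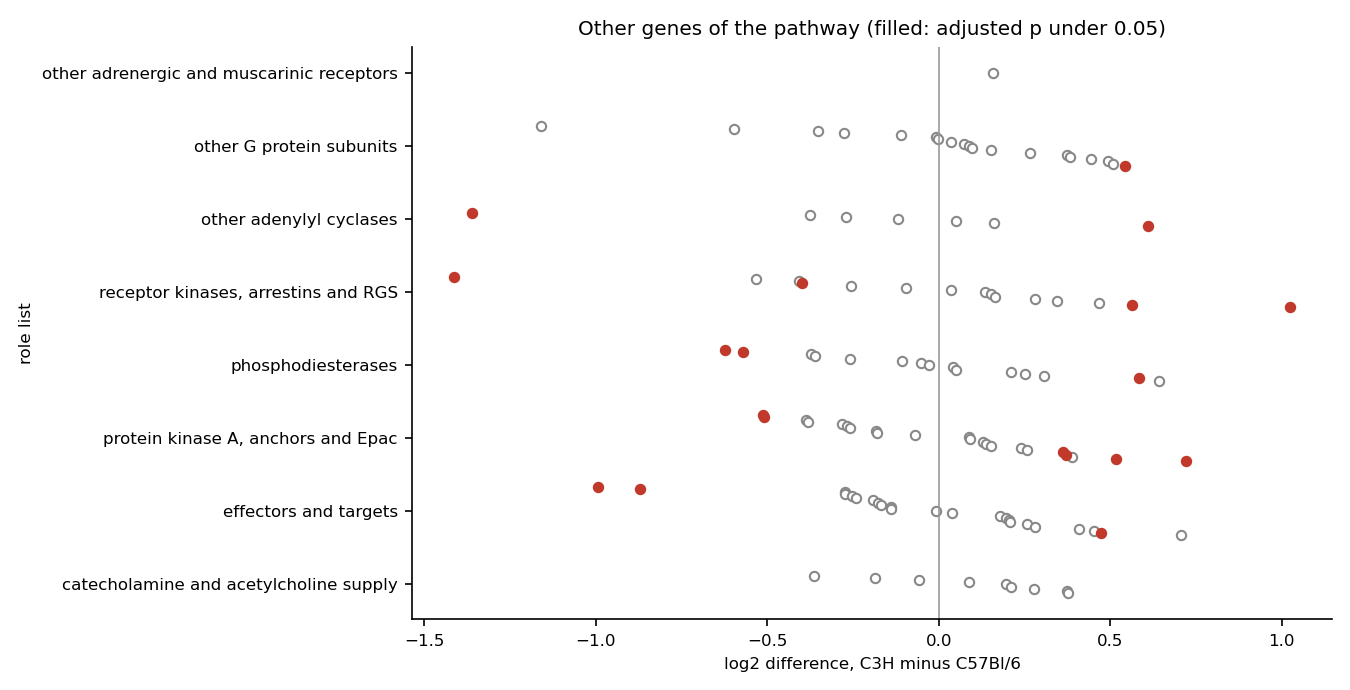
Log2 difference between C3H and C57Bl/6 hearts for the 111 other pathway genes above the dim filter, with 1 point per gene in a row for its role and filled points where the adjusted p was under 0.05. Filled points lie on both sides of 0, with Grk3 farthest to the right (1.02) and Rgs6 and Adcy1 farthest to the left (-1.41 and -1.36).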

How the data were processed

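The deposited values are log2 values, 1 per probe set and array. Per the submitters' processing notes the authors used MAS5 (version not given in the sources used here), and 50 ng of RNA was labelled in repeated amplification, per the labels' protocols. Here, log2(signal + 16) was computed from the linear signal. Differences understate the change of dim sets. limma 3.58.1 in R 4.3.3 (lmFit, eBayes with trend) was fitted to all 15 arrays, with Benjamini-Hochberg adjustment over 13111 genes (brightest set each) or 23048 probe sets. The threshold was an adjusted p of 0.05. The procedure was tested on simulated data. The annotation gave 34940 probe sets 1 symbol, and 34736 of these were found in the RefSeq table (GRCm38.p6). The 932 with several and 9160 with none listed were left out. The rule named all members and their sets, up to 4 passing genes per role list between the inbred strains, up to 2 in other comparisons, and 2 similar genes per member. Members and lists were chosen with earlier results of these data known. P-values of the fit weigh a difference against the variation between arrays, which holds differences between mice and in handling together. The number of arrays limits the precision.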

Additional observations from a re-analysis of the deposited data

Results flagged for a closer look

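In 1 of 45 groups of 5 arrays (15 probe sets in 3 groups), a single array stood far from the others. The dim Adcy5 probe set 1439829_at read 4.57 in C57Bl/6 replicate 4, against 5.56 to 5.88 on the 4 other C57Bl/6 arrays. The gap was 0.754 of the range of the group. About 1 in 20 groups is picked out this way by chance, and the set lies below the dim filter and enters no main test.

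The array controls were checked in the same way, and 3 of 6 groups (both measures in 3 groups) held an array that stood apart. The poly-A controls read 12.48 on C3H replicate 4, against 10.63 to 10.81 on the 4 other C3H arrays, and 9.25 on C57Bl/6 replicate 5, against 10.45 to 10.55 on the others. The Gapdh ratio was 1.06 on C3H replicate 4, against 0.39 to 0.56 on the others. Grk5 still passed between the inbred strains without C3H replicate 4 (0.89, adjusted p = 0.000646) and without C57Bl/6 replicate 5 (0.91, adjusted p = 0.000627), in the limma fit of its brighter set. Without C3H replicate 4 the higher level of Gnai2 set 1419449_a_at in B6C3F1 than in C3H did not pass (0.34, adjusted p = 0.107).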

How the results depend on the processing

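Of 2078 alternatives run on 75 differences, 1855 kept direction and side of the threshold, 174 lost a call, 9 gained one and 40 turned direction, none of these 40 with a call on either side. The causes were not tested. For C3H minus C57Bl/6, the poly-A covariate left 1 member gene, 11 pathway genes and 1363 of all genes passing (2, 19 and 2052 without it). Over arrays left out, member genes ran from 1 to 3 and all genes from 1640 to 2276. For B6C3F1 minus C57Bl/6, centring each array on its median left 0 member genes, 0 member probe sets, 2 pathway genes and 315 of all genes (213 higher, 102 lower), against 502 (270 higher, 232 lower). Without a trend the counts were 0, 0, 2 and 304, and without a dim filter 0 member probe sets passed. Leaving out an array gave 0 to 2 member genes, 0 to 2 member probe sets, 0 to 7 pathway genes and 272 to 826 of all genes. For B6C3F1 minus C3H, centring gave 2 member genes, and the poly-A covariate left 0 member genes, 0 member probe sets, 5 pathway genes and 405 of all genes (813 without it). Leaving out an array gave 1 to 3 member genes, 2 to 5 member probe sets, 7 to 16 pathway genes and 554 to 1133 of all genes. Over all 28 alternatives of this comparison, centring included, all genes passing ran from 405 to 1133. Against the midparent, 1 pathway gene passed as higher in B6C3F1 without a dim filter. In each of 2 other settings, the filter at the 60th percentile and the replicate block, 1 passed as lower. All genes passing fell from 83 to 52 without a trend and 50 with the poly-A covariate. Leaving out an array gave 0 to 2 member genes, 0 to 2 member probe sets, 0 to 3 pathway genes and 41 to 212 of all genes.

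Turned differences were small. Gnas turned to 0.021 (C3H minus C57Bl/6) and -0.063 (B6C3F1 minus C3H) after centring, to -0.030 with quantile normalization and -0.049 with the Gapdh covariate (both B6C3F1 minus C3H), and to 0.14 against the midparent without sets ending in _x_at or _s_at. Adcy6, C3H minus C57Bl/6, turned to -0.0068 with quantile normalization and -0.12 with the poly-A covariate (-0.085 to 0.11 over arrays left out). Adcy5 probe set 1447696_x_at turned to -0.13 (C3H minus C57Bl/6, poly-A), to -0.0092 after centring and -0.087 with the Gapdh covariate (B6C3F1 minus C3H), and to -0.021 (midparent, Gapdh). Gnas probe set 1453413_at turned to 0.0065 (B6C3F1 minus C57Bl/6, quantile), and Adra1b to 9e-04 (midparent, Gapdh). Over arrays left out, 1447696_x_at ran from -0.12 to 0.087 (C3H minus C57Bl/6), -0.059 to 0.15 (B6C3F1 minus C57Bl/6), -0.049 to 0.15 (B6C3F1 minus C3H) and -0.047 to 0.15 (midparent). Adcy5 ran from -0.023 to 0.061, Gnas probe set 1453413_at from -0.24 to 0.085 and Gnai2 probe set 1419449_a_at from -0.098 to 0.0051 (B6C3F1 minus C57Bl/6). Adra1b ran from -0.062 to 0.45 and Gnas from -0.018 to 0.037 (B6C3F1 minus C3H), and Gnas probe set 1453413_at from -0.066 to 0.25 (midparent).

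Same-numbered arrays of different groups did not deviate together (correlations of -0.06 to 0.13, 15 pairs). Low correlations alone cannot show that the mice were unpaired, and the main fit used no pairing. With the replicate number as a block, the Gnai2 set 1419449_a_at lost its call in B6C3F1 minus C3H (adjusted p = 0.0604), as did Rapgef3 between the inbred strains (0.0515). The fit with only the groups compared was not run for the midparent, which needs all 3. Signal over background limits the 5 dim member sets, the Gnas set 1453413_at and Adra1b.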
